A study of Danio rerio with 8 samples.

Results

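The genes described here encode the enzymes that build purine nucleotides from small precursors: prps1a, ppat, gart, pfas, paics, adsl, atic, impdh1b, impdh2 and gmps. They were taken by name from a count table of 36109 zebrafish genes, and all 10 were present and passed the filter on low counts that left 22163 genes for testing. The study compared whole wild-type AB embryos raised with 3 µM E64d, which enters cells and blocks cysteine proteases, with embryos given the solvent DMSO alone. Both groups were treated between 1 and 24 hours after fertilization (hpf), had a cut made in the chorion and shared a medium that the labels call AFW-PTU. Each group had 4 libraries, and each library was a pool of 7 whole embryos. The labels state 0.5% DMSO for both groups, whereas 3 µM taken from the described 10 mM stock corresponds to 0.03% DMSO, and the labels do not settle which amount the E64d embryos received.

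De novo synthesis starts when a phosphoribosyl pyrophosphate synthetase (encoded by prps genes) activates ribose phosphate from the pentose phosphate pathway. The purine ring is then assembled on that sugar with nitrogen from glutamine, glycine and aspartate and with formyl groups carried by folate. The chain ends at IMP, from which separate branches lead to AMP and GMP. Growing embryonic tissue needs purines for RNA, DNA and ATP, and zebrafish carrying mutations in gart or paics are known for defects of pigment cells and of eye growth.

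Embryos kept in E64d had lower mRNA levels for most of this pathway, relative to the other genes of each library. Amounts of mRNA per embryo were not measured. Of the 10 genes, 8 fell and none rose, where 3.85% of all tested genes fell, 2.28% rose and 6.13% were called in either direction (edgeR quasi-likelihood test, adjusted p under 0.05). With libraries scaled by their totals alone, 7 of the 10 genes fell, and over all genes 498 fell and 803 rose, in place of 853 and 506. The median log2 fold change of the 10 genes was −0.55, against 0.01 for all tested genes. These 10 genes were chosen with earlier results of these data known. The lowest log2 fold changes were those of paics, gart and pfas, in the middle of the chain. Set against the other genes within each library, paics fell further than all 9 (exact permutation p = 0.0286 each, the smallest possible with these pools). As paics was picked as the lowest in the same libraries, this is a description. The genes gart and pfas did not differ from prps1a or atic past the threshold (exact permutation p = 0.0857 to 0.2). Summed over the 10 genes, the level was 1693 to 1769 CPM (counts scaled to a common library size) in E64d pools and 2584 to 3250 CPM in DMSO pools. All 4 E64d sums lay below all 4 DMSO sums.

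Libraries held 29422983 to 37309883 counts, and the totals of the groups differed by less than the spread between pools (2-sided exact permutation test, p = 0.6, n = 4 per group). DMSO replicate 2 stood apart from the other 7 libraries by its low share of mitochondrial counts, at 0.847%. It was also the pool with the highest levels of ppat, gart, pfas and paics. The falls of all 8 genes passed without it, and the log2 fold changes of paics, gart and pfas were then −1.23, −0.82 and −0.80. Whole-embryo RNA does not show whether a lower level comes from fewer cells of a type or from less mRNA per cell.

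**Figure D1:**
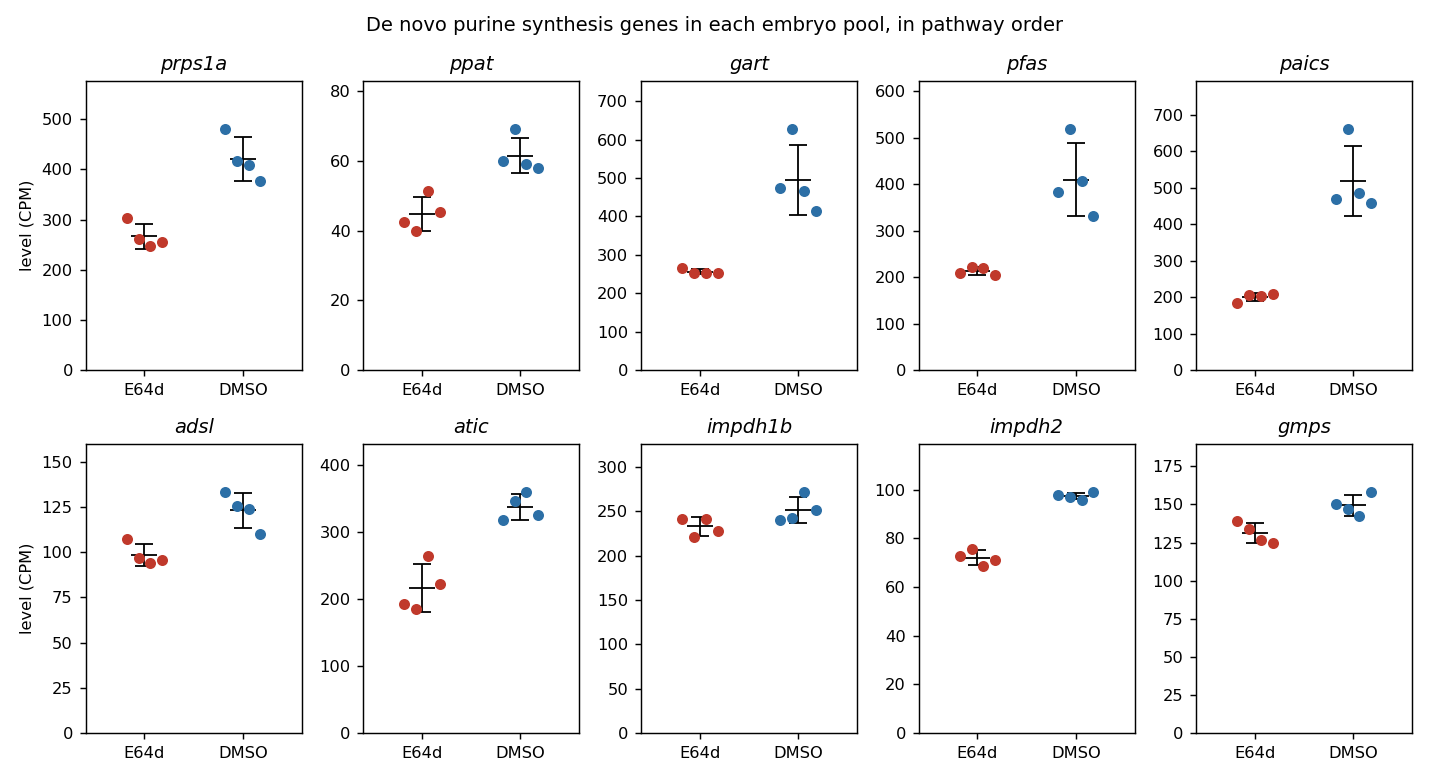
Level of each of the 10 genes (CPM, each axis starting at 0) in the 4 E64d pools (left, red) and the 4 DMSO pools (right, blue), with the mean and SD of each group as a black bar. For every gene except impdh1b the E64d points lie wholly below the DMSO points. With counts over library totals alone, which are not drawn, the groups of adsl and gmps overlap as well.

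The pathway opens with prps1a, which makes phosphoribosyl pyrophosphate. It stood at 304, 262, 247 and 255 CPM in E64d replicates 1 to 4, against 480, 417, 409 and 378 CPM in DMSO replicates 1 to 4. The groups did not overlap, and replicate 1 was the highest pool of each. The log2 fold change was −0.66 ± 0.09 (SE; adjusted p = 0.000654 by edgeR), which puts the E64d level at 63.4% of the DMSO level.

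The committed step belongs to ppat, the amidotransferase that places the first nitrogen of the ring on the activated sugar. Its levels were 42.5, 40.0, 51.2 and 45.3 CPM in E64d pools and 59.8, 69.0, 59.1 and 58.0 CPM in DMSO pools. The groups were close to each other but separate, and the log2 fold change was −0.46 ± 0.09 (SE; edgeR adjusted p = 0.0116). Although it encodes the enzyme known as the control point of the chain, ppat fell less than gart, pfas and paics: the log2 ratio of its counts to theirs was higher in E64d by 0.47, 0.46 and 0.90 (2-sided exact permutation test, p = 0.0286 each, the smallest that 4 against 4 allows).

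The next steps are carried out by gart, which encodes a protein with several enzymatic activities, and pfas, which takes a further nitrogen from glutamine. gart stood at 266, 252, 253 and 252 CPM in E64d pools and at 474, 627, 466 and 415 CPM in DMSO pools. Its E64d pools were nearly equal, whereas DMSO replicate 2 stood above the other 3 controls. pfas stood at 208, 222, 221 and 205 CPM in E64d pools and at 384, 518, 406 and 332 CPM in DMSO pools, with the same DMSO pool on top. The log2 fold changes were −0.95 ± 0.11 for gart (adjusted p = 0.000142 by edgeR) and −0.94 ± 0.11 for pfas (adjusted p = 0.000248).

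The steepest fall was that of paics, whose product joins a carboxylase and a synthetase that adds aspartate. Its levels were 184, 205, 202 and 208 CPM in E64d pools, against 470, 660, 487 and 457 CPM in DMSO pools. Every E64d pool was less than 0.5 times the lowest DMSO pool. The log2 fold change of −1.37 ± 0.11 (adjusted p = 7.67e-06 by edgeR) corresponds to 38.6% of the DMSO level. Ordered from the lowest log2 fold change of all tested genes, paics held rank 129.

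The lyase encoded by adsl acts after paics in the chain and again in the AMP branch. It stood at 107, 96.6, 94.3 and 95.7 CPM in E64d pools and at 133, 126, 124 and 110 CPM in DMSO pools, and the highest E64d pool came close to the lowest DMSO pool. Its fall was the smallest that passed (−0.32 ± 0.08 on the log2 scale, edgeR adjusted p = 0.0275). The call was lost when DMSO replicate 1 or 3 was left out (adjusted p = 0.0649 and 0.0732), when E64d replicate 2, 3 or 4 was (0.0787, 0.0869 and 0.100), and when libraries were scaled by their totals alone (adjusted p = 0.0936). The log2 fold change stayed between −0.37 and −0.24 over all alternatives.

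The formyl transfer and ring closure that yield IMP are carried out by the bifunctional enzyme of atic. Its levels were 192, 185, 264 and 223 CPM in E64d pools and 318, 347, 360 and 325 CPM in DMSO pools. The E64d pools varied more here than for any other of the 10 genes (SD 35.8 CPM, n = 4), and E64d replicate 3 was the highest of them. The groups remained separate, with a log2 fold change of −0.64 ± 0.10 (adjusted p = 0.00243 by edgeR).

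The GMP branch starts at IMP dehydrogenase, which is encoded by impdh1b and impdh2, and ends at gmps, the GMP synthetase. impdh2 stood at 72.7, 75.7, 68.5 and 71.3 CPM in E64d pools and at 97.9, 97.0, 95.9 and 99.1 CPM in DMSO pools. This was the tightest pair of groups among the 10 genes, and the log2 fold change was −0.44 ± 0.06 (adjusted p = 0.00133 by edgeR). impdh1b stood at 242, 221, 242 and 228 CPM in E64d pools and at 240, 243, 272 and 252 CPM in DMSO pools. Its groups overlapped, and its log2 fold change of −0.11 ± 0.07 did not pass (adjusted p = 0.406 by edgeR). gmps stood at 139, 134, 127 and 125 CPM in E64d pools and at 150, 147, 142 and 158 CPM in DMSO pools. Its groups did not overlap, but its log2 fold change of −0.19 ± 0.07 did not pass either (adjusted p = 0.125 by edgeR). In all, 9 of the 10 genes had E64d pools wholly below the DMSO pools, as did 8.55% of all tested genes, and none had them wholly above, as did 5.86%. These counts depend on the TMM scaling, whose factors were 1.025 to 1.036 in E64d libraries and 0.928 to 0.993 in DMSO libraries. With counts over library totals alone, the groups of adsl and gmps overlap.

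**Figure D2:**
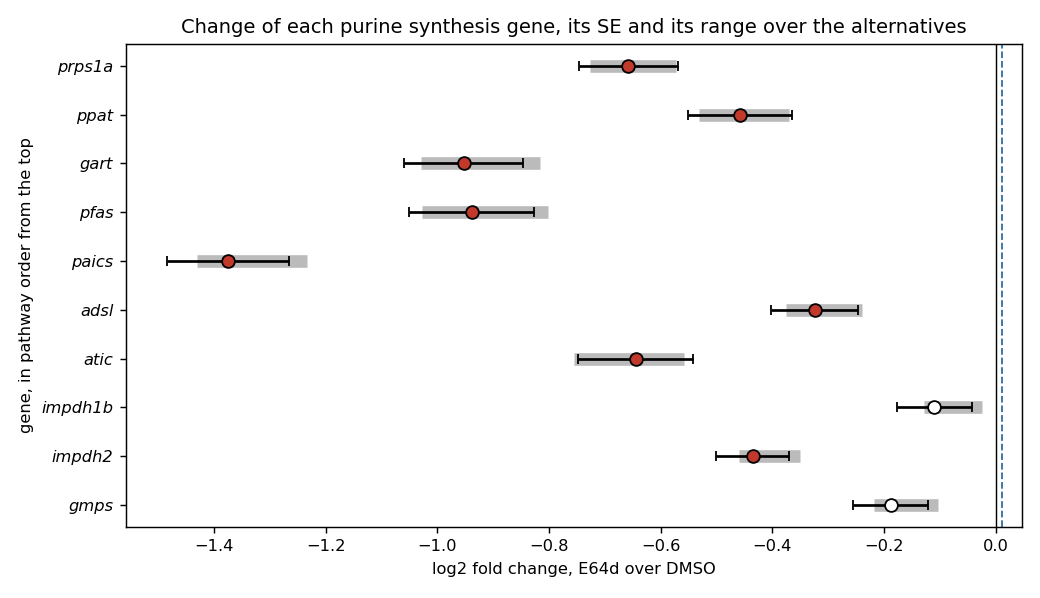
Log2 fold change (E64d over DMSO) of each gene in pathway order from the top, with its SE as a black bar and the range over 16 alternative settings as a grey band. Filled points passed (8 genes), open points did not, and the dashed line marks the median of all tested genes (0.01). No grey band reaches 0.

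Since whole-library scaling can shift all genes together, the genes were also set against each other within each library, as the ratio of their counts. Of 45 pairs, 26 had a ratio without overlap between E64d and DMSO. Each of them had p = 0.0286 (2-sided exact permutation test), which is the smallest p that 4 against 4 allows. The adjusted p over the 45 pairs was 0.0495 for all of them. They therefore passed together, and with fewer pairs at this smallest p none would have passed. The pairs also share genes and were added after the data were seen, so their number is a description. The log2 ratio of paics to each of the other 9 genes was lower in E64d, by −0.42 against gart, −0.44 against pfas and −1.25 against impdh1b. In contrast, the ratio of gart counts to pfas counts was 1.28, 1.14, 1.15 and 1.23 in E64d pools and 1.23, 1.21, 1.15 and 1.25 in DMSO pools. That difference of −0.02 on the log2 scale did not pass (exact permutation p = 0.771), and it lay between −0.05 and 0.01 when single pools were left out.

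Between consecutive genes of the chain, the ratio passed for ppat to gart (difference 0.47 on the log2 scale), pfas to paics (0.44) and paics to adsl (−1.04; exact permutation p = 0.0286 each). It did not pass for prps1a to ppat (−0.20, exact permutation p = 0.286) or adsl to atic (0.33, p = 0.0857). The ratio of ppat counts to paics counts was 0.231, 0.195, 0.254 and 0.217 in E64d pools and 0.127, 0.105, 0.121 and 0.127 in DMSO pools, without overlap (difference 0.90 on the log2 scale, exact permutation p = 0.0286). In the GMP branch, the ratio of impdh1b counts to impdh2 counts was 3.32, 2.91, 3.53 and 3.20 in E64d pools and 2.46, 2.50, 2.84 and 2.54 in DMSO pools (difference 0.33 on the log2 scale, exact permutation p = 0.0286). Both genes encode the same enzyme activity, and impdh1b counts stood higher relative to impdh2 counts in E64d. The third gene of this activity, impdh1a, was too low to be tested, at 0.239 ± 0.127 CPM in E64d and 0.469 ± 0.248 CPM in DMSO (SD, n = 4 each).

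**Figure D3:**
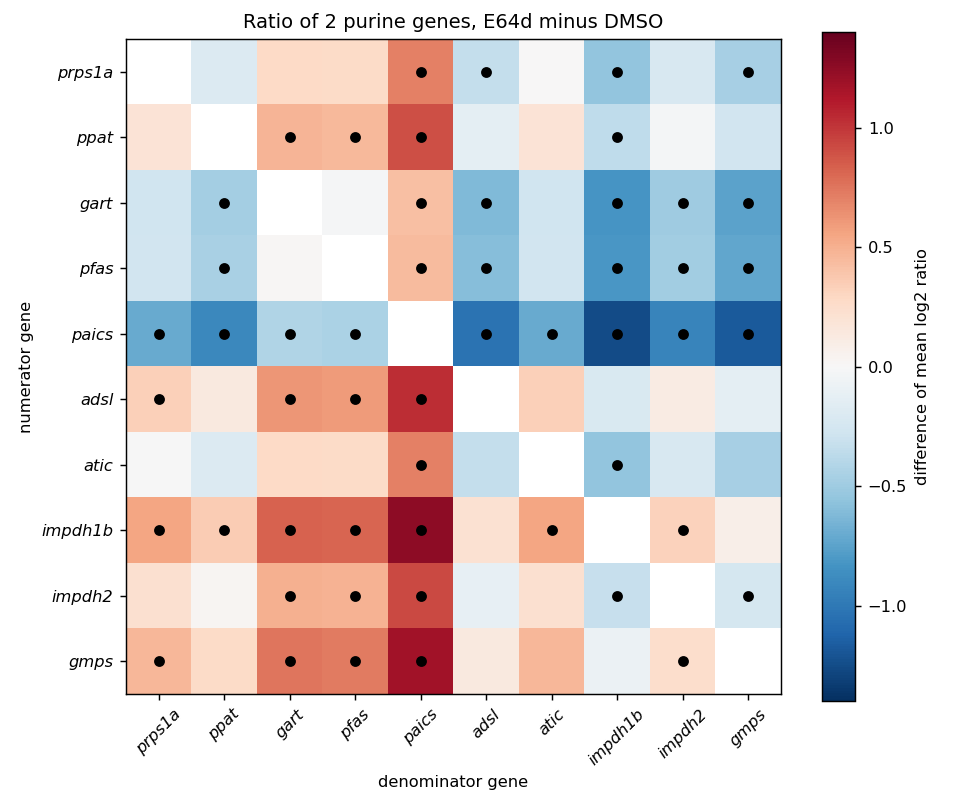
Difference between E64d and DMSO in the mean log2 ratio of counts for each pair of genes, with the numerator in rows and the denominator in columns. Dots mark the 26 of 45 pairs that passed the exact permutation test after adjustment, and the row of paics is blue throughout.

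Pools of the same group also varied, and the genes did so in blocks. After the mean of each group was taken away, gart and pfas correlated at 0.93 over the 8 libraries, pfas and paics at 0.89, and gart and paics at 0.86. These 3 genes share the high DMSO replicate 2, where they stood 0.36 to 0.37 above the group mean on the log2 scale. prps1a and adsl correlated at 0.95, and both were highest in replicate 1 of each group. ppat and atic correlated at 0.81, and both were highest among E64d pools in replicate 3. atic and impdh2 ran opposite to each other (−0.94). All genes in such a comparison share the libraries and their scaling, and the 8 points hold 2 groups of 4, so these correlations are descriptions.

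**Figure D4:**
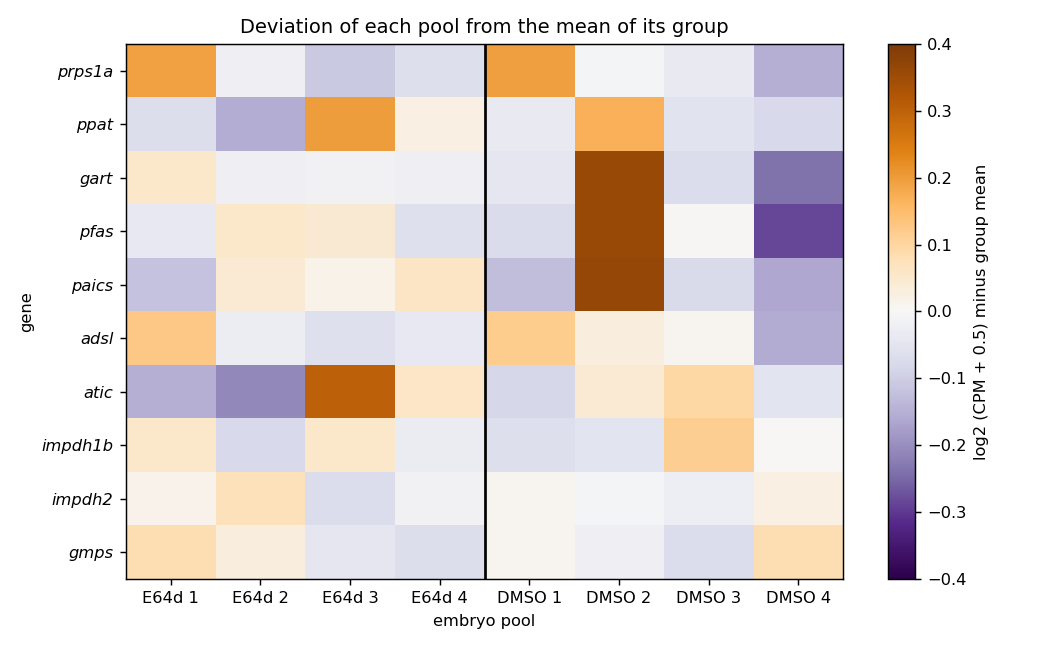
Deviation of each pool from the mean of its own group, as log2 of CPM plus 0.5, for the 10 genes (rows) in the 4 E64d pools (left) and the 4 DMSO pools (right). DMSO replicate 2 is high for gart, pfas and paics, and replicate 1 of both groups is high for prps1a and adsl.

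Of 6 tested paralogs, partners and AMP-branch genes, 1 fell and 1 rose, with a median log2 fold change of −0.24. Counts in this and later lists stand against the 3.85% of all tested genes that fell and the 2.28% that rose. The AMP branch is opened by adenylosuccinate synthetase. Its gene adssl stood at 123 ± 8.58 CPM in E64d and 153 ± 14.8 CPM in DMSO (−0.32 ± 0.08 SE, adjusted p = 0.0417 by edgeR), and its paralog adssl1, known in mammals as the muscle form, at 80.7 ± 23.0 CPM in E64d and 50.04 ± 6.93 CPM in DMSO (0.69 ± 0.16, adjusted p = 0.0273). The call of adssl was lost without any pool other than DMSO replicate 1 (adjusted p = 0.0503 to 0.15) and with library totals alone (0.0946). The call of adssl1 was lost without DMSO replicates 3 or 4 (adjusted p = 0.0872 and 0.0697), and without E64d replicate 1 its log2 fold change was 0.47. A further adenylosuccinate synthetase gene, adss, did not pass. It stood at 86.4 ± 7.16 CPM in E64d and 87.7 ± 8.57 CPM in DMSO (−0.02 ± 0.09, adjusted p = 0.930 by edgeR). The paralog of prps1a, prps1b, stood at 26.7 ± 1.62 CPM in E64d and 31.0 ± 1.90 CPM in DMSO and did not pass (−0.22 ± 0.09, adjusted p = 0.168). With the replicate number as a block, prpsap1, which encodes a partner protein of the synthetase, passed as a further fall of the group (adjusted p = 0.0171). With DESeq2 and with the filter at 5 CPM, the group also had 2 falls.

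Purine salvage, which rebuilds nucleotides from free bases and nucleosides, had 1 called gene. Of 11 tested genes 1 fell, and the median log2 fold change was −0.01 (0.08 with library totals alone). With DESeq2, with the filter at 5 CPM and with library totals alone, 1 gene (hprt1) rose as well. The gene that fell was adka, an adenosine kinase, at 190 ± 11.5 CPM in E64d and 303 ± 40.6 CPM in DMSO (−0.67 ± 0.09, adjusted p = 0.000777 by edgeR). hprt1, the hypoxanthine and guanine phosphoribosyltransferase that returns bases to the nucleotide pool, stood at 33.6 ± 1.07 CPM in E64d and 28.3 ± 0.161 CPM in DMSO (0.25 ± 0.07, adjusted p = 0.0733); it is named after its values were seen, since its E64d pools lay wholly above its DMSO pools.

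Among 20 tested genes of purine breakdown and interconversion, 1 rose and 2 fell, with a median of 0.03. uraha, an enzyme of urate breakdown, rose to 34.2 ± 1.71 CPM in E64d, against 13.0 ± 0.292 CPM in DMSO (1.39 ± 0.09, adjusted p = 1.01e-06 by edgeR). The falls were itpa, which clears deaminated purine nucleotides, and gmpr2, a GMP reductase (−0.43 ± 0.12 and −0.62 ± 0.17, adjusted p = 0.0479 and 0.0482). Neither passed with limma-voom (0.0555 and 0.0621) or under library totals alone (0.112 and 0.0987). The call of itpa was lost without any 1 of the 8 pools and that of gmpr2 without any pool other than DMSO replicate 2 (adjusted p up to 0.138 and 0.12). With the replicate block and with DESeq2, 2 genes of this list rose and 4 fell.

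The pathways that feed purine synthesis held some of the deeper falls. Of 10 tested genes of the pentose phosphate pathway, the source of the ribose, 4 fell and none rose, with a median of −0.19. The transketolase gene tktb stood at 331 ± 10.99 CPM in E64d and 736 ± 44.5 CPM in DMSO (−1.15 ± 0.07, adjusted p = 6.33e-07 by edgeR). rpia, the isomerase that makes ribose phosphate, stood at 135 ± 6.98 CPM in E64d and 223 ± 12.8 CPM in DMSO (−0.73 ± 0.07, adjusted p = 3.53e-05). The summed level of the 10 genes in E64d was 56.7% of that in DMSO, and that of the purine genes 60.4%. The pentose phosphate sum rests largely on tktb, which held 331 of 775 CPM in E64d and 736 of 1366 CPM in DMSO. The other 6 tested genes of that list did not pass, and its median of −0.19 compares with −0.55 for the purine genes.

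In the one-carbon and serine-glycine supply 3 of 24 tested genes fell and 2 rose, with a median of −0.13, where 3.85% and 2.28% of all tested genes did. mthfd1b, a gene of the cytosolic enzyme that makes the formyl-folate used by the gart and atic products, stood at 88.1, 96.1, 109 and 114 CPM in E64d pools and at 259, 345, 265 and 247 CPM in DMSO pools. The groups were far apart, and the log2 fold change of −1.46 ± 0.11 (adjusted p = 6.71e-06 by edgeR) stands beside −1.37 for paics. mthfd1l, which releases formate from mitochondria, fell as well (−0.68 ± 0.11, adjusted p = 0.003). psat1, of serine synthesis, and aldh1l2, which oxidizes formyl-folate in mitochondria, rose by 0.62 ± 0.09 and 0.60 ± 0.10 on the log2 scale (adjusted p = 0.000925 and 0.00366). Of 10 tested genes of glutamine and aspartate supply 2 fell and none rose: glula, a glutamine synthetase gene, by 1.19 ± 0.12 and pcxb, a pyruvate carboxylase gene, by 0.56 ± 0.08 on the log2 scale (adjusted p = 6.3e-05 and 0.00126). The glutamine synthetase gene glulb did not pass (−0.12 ± 0.07, adjusted p = 0.396 by edgeR). It stood at 334 CPM in E64d and 363 CPM in DMSO, where glula stood at 112 and 257 CPM. In the glutamine and aspartate list 2 genes rose with the replicate block, without DMSO replicate 2, with DESeq2, without the filter, with halved counts and under library totals alone, and 1 with the filter at 5 CPM.

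Pyrimidine synthesis, the parallel route to the other nucleotides, had 5 falls among 13 tested genes and no rise (median −0.20). umps, which completes UMP, stood at 57.6 ± 1.42 CPM in E64d and 109 ± 13.8 CPM in DMSO (−0.92 ± 0.09, adjusted p = 4.47e-05 by edgeR), and ctps1a, a CTP synthetase gene, fell by 0.54 ± 0.08 on the log2 scale (adjusted p = 0.00177). Of these falls 3 were counted when DMSO replicate 3, or E64d replicate 2 or 3, was left out or when library totals alone were used, and 2 when E64d replicate 4 was left out. Of 13 tested nucleotide kinase and ribonucleotide reductase genes 4 fell and 1 rose (median −0.15). ak3, an adenylate kinase family gene, and rrm2b, a reductase subunit gene, fell by 0.80 ± 0.14 and 0.60 ± 0.09 on the log2 scale (adjusted p = 0.00419 and 0.00198). The reductase genes rrm1 and rrm2 did not pass (−0.07 ± 0.09 and −0.33 ± 0.16, adjusted p = 0.734 and 0.296 by edgeR). They stood at 464 and 269 CPM in E64d and at 486 and 338 CPM in DMSO, where rrm2b stood at 67.8 and 103 CPM. guk1a, the guanylate kinase that acts on the product of gmps, was higher (0.32 ± 0.09, adjusted p = 0.0483), a call lost with limma-voom (adjusted p = 0.0504) and without any pool other than DMSO replicate 4 or E64d replicate 1 (adjusted p up to 0.17).

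Among 13 tested regulators known to act on purine synthesis genes, such as the myc genes, atf4a, atf4b and mtor, none passed with edgeR, DESeq2 or limma-voom, and 2 had an unadjusted p under 0.05. Their log2 fold changes lay between −0.27 (mych) and 0.23 (mxd1). mych passed with the replicate block (adjusted p = 0.0364). These are mRNA levels, and the activity of the encoded proteins was not measured.

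**Figure D5:**
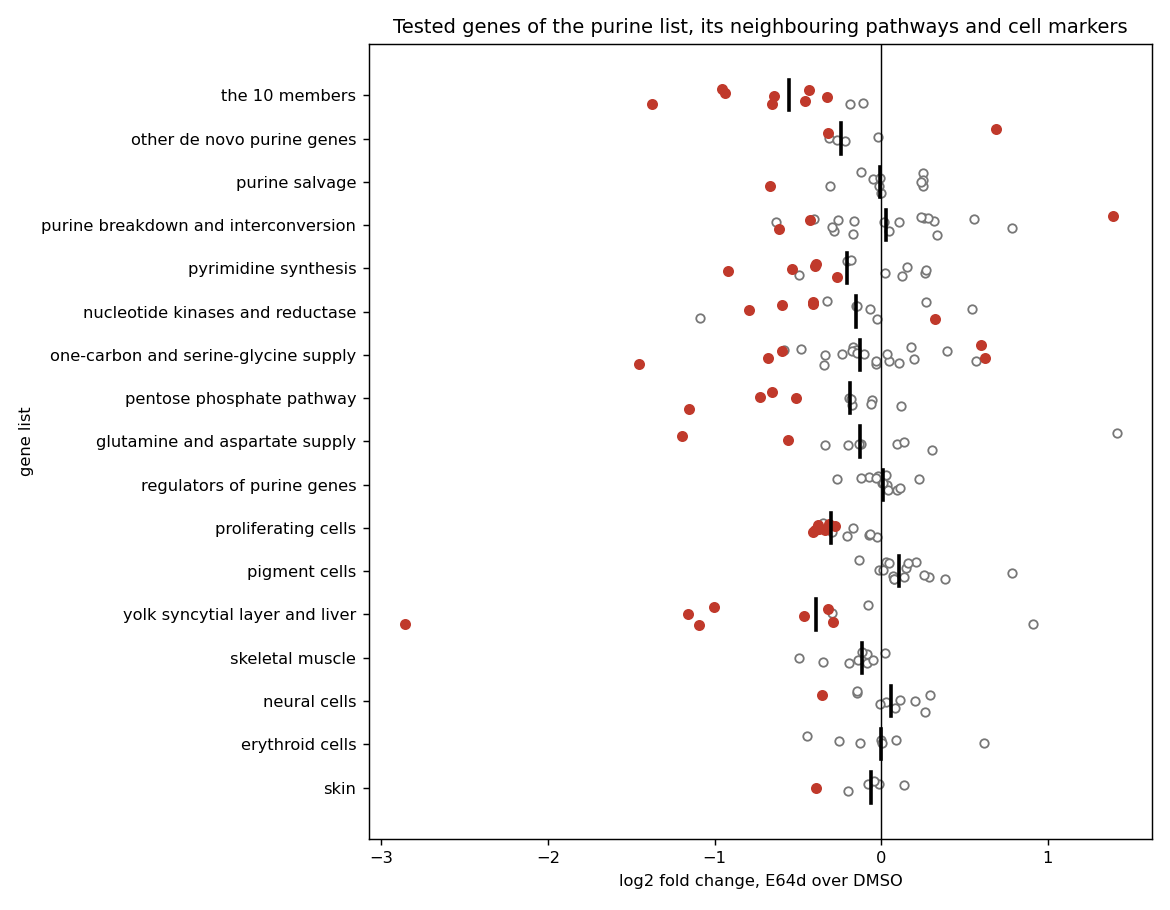
Log2 fold change (E64d over DMSO) of the tested genes of each list, with filled red points for genes that passed, open points for those that did not, and a black bar at the list's median. The 10 purine genes have the lowest median (−0.55), followed by the yolk and liver markers (−0.39) and the proliferation markers (−0.30). Both the genes and the lists were chosen with earlier results of these data known, so this order is a description.

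Markers of dividing cells were lower along with the purine genes. All 14 had a log2 fold change below 0, and 7 fell (median −0.30), among them mcm5 (−0.37 ± 0.08, adjusted p = 0.0115 by edgeR) and pcna (−0.41 ± 0.09, adjusted p = 0.0181), which belong to DNA replication. The summed level of the 14 was 4860 to 5070 CPM in E64d pools and 5562 to 6768 CPM in DMSO pools. mki67, a common marker of cycling cells, did not pass (−0.02 ± 0.06, adjusted p = 0.89). The count of falls was 1 when DMSO replicate 3 or E64d replicate 1 was left out, 4 and 3 when E64d replicate 2 or 3 was, 0 when E64d replicate 4 was, and 4 with scaling by totals. It was 10 with the replicate block and 9 with DESeq2. Within each library, the summed purine genes stood at 0.334 to 0.352 times the summed proliferation markers in E64d pools and at 0.462 to 0.501 times in DMSO pools, without overlap. Against the summed pentose phosphate genes, the ratio was 2.18 to 2.30 in E64d pools and 1.96 to 2.30 in DMSO pools, with overlap. The pentose phosphate sum rests largely on tktb, and the median log2 fold change of that list was −0.19, against −0.55 for the purine genes. The genes and lists were chosen with earlier results of these data known, so both ratios of sums are descriptions.

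Markers of the yolk syncytial layer and liver fell in 7 of 10 genes (median −0.39), with mttp and apoc2 at −2.86 and −1.16. The other 3 did not pass. Of the 10, 9 had a log2 fold change below 0, and the highest value was 0.91. Their sum was 12704 to 15151 CPM in E64d pools and 16763 to 18773 CPM in DMSO pools. The part of the proliferation and yolk markers in the lower purine transcripts was not tested. No marker of pigment cells passed with edgeR or limma-voom (0 of 16 each), and 3 had an unadjusted p under 0.05. A rise of 1 pigment marker was called with DESeq2, with the block and with library totals alone. The median of the 16 was 0.11, and 2 of them had a log2 fold change below 0. Their sum was 587 to 716 CPM in E64d pools and 518 to 694 CPM in DMSO pools. Markers of skeletal muscle (0 of 9; unadjusted p under 0.05 in 2) and erythroid cells (0 of 7; unadjusted in 0) did not pass with edgeR, DESeq2 or limma-voom. With the replicate block 2 muscle markers fell and 1 erythroid marker rose, and 2 muscle markers fell without DMSO replicate 1. Of 10 neural markers only tubb5 fell (−0.36 ± 0.07, adjusted p = 0.00594 by edgeR), and of 6 skin markers only cyt1 (−0.39 ± 0.07, adjusted p = 0.00688). The neural marker elavl3 rose with the replicate block (adjusted p = 0.0430). No marker was at 0 in all pools.

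In the RefSeq annotation of the assembly GRCz12tu, used here for gene order only, paics and ppat lie next to each other and overlap, and the end of atic overlaps fn1b. The strand setting of the counting is not given in the sources used here, so reads in such overlaps cannot be told apart, and the same holds for reads shared by the paralogs of prps1a, impdh1b and adssl. The neighbour fn1b, a fibronectin gene, did not fall with atic; it stood at 183 ± 23.2 CPM in E64d and 142 ± 19.0 CPM in DMSO (0.37 ± 0.11, adjusted p = 0.0642 by edgeR), and it rose with the replicate block (adjusted p = 0.0390). Of 13 tested genes that flank the 10 genes without belonging to them, none passed with edgeR without the block or with limma-voom, 1 passed with DESeq2 and 1, fn1b, with the block (unadjusted p under 0.05 in 3).

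Among 11030 genes outside these lists with a mean of at least 10 CPM, those whose levels ran most like the mean of the 10 purine genes over the 8 libraries were hnrnpabb, samhd1, dpp4, zgc:153913 and cd99l2 (Pearson r = 0.992 to 0.997, which includes the difference between the groups). hnrnpabb, an RNA-binding protein gene, stood at 618 ± 13.1 CPM in E64d and 862 ± 30.5 CPM in DMSO. samhd1, known in mammals for hydrolysing deoxynucleotides, stood at 23.9 ± 1.34 CPM in E64d and 36.5 ± 1.33 CPM in DMSO. Within groups, r with the purine mean was 0.86, 0.85 and 0.87 for hnrnpabb, dpp4 and cd99l2. It was lower for samhd1 and zgc:153913 (0.44 and 0.55). All of these genes were picked by their r over the same 8 libraries, which includes the deviations within groups. A high r within groups is therefore partly built in by the choice and is a description. The call of cd99l2 (−0.23 ± 0.06, adjusted p = 0.0382 by edgeR) was lost without any pool other than DMSO replicate 2 (adjusted p up to 0.13), under library totals alone (0.167) and without the filter (0.0803).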

How the data were processed

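RNA of whole zebrafish embryo pools was sequenced in 8 libraries, 4 of E64d and 4 of DMSO. The authors deposited raw counts per gene. Per the submitters' processing notes, the build was GRCz11 and the tools included STAR 2.7.10b, featureCounts 2.0.6, Trim Galore 0.6.10 and FastQC 0.12.1. The annotation is not given in the sources used here. Even numbers made up 75.9% to 80.7% of all counts between 1 and 20, so reads may have been counted in pairs and counts were also halved as an alternative. The table's 6 unnamed columns were left out. Sample titles gave the group and the replicate number.

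The test was that of edgeR 4.0.16 in R 4.3.3, with DESeq2 1.42.0 and limma-voom 3.58.1 as alternatives, beside other scalings and filters, the replicate block and leaving out each pool. Its steps were filterByExpr, TMM scaling, quasi-likelihood test, Benjamini-Hochberg adjustment over 22163 genes, threshold 0.05. Where no other tool is named, an adjusted p is edgeR's. CPM are counts over the TMM-scaled total. Errors are SD over pools or SE from the test statistic. The fit was checked on simulated data, where it recovered 32% of 50 genes changed 1.5-fold and 74% of 50 genes changed 2-fold. Of the calls in that simulation, 4.61% were false. A gene that did not pass may therefore still differ by such an amount, where its SE is wide enough to allow it. How far this holds at the counts of the purine genes was not tested. Of these, impdh1b and gmps did not pass, with log2 fold changes of −0.11 ± 0.07 and −0.19 ± 0.07 (SE). P-values set the difference between the groups against the spread between pools, which may be technical in part.

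The purine genes and the 17 lists were chosen with earlier results of these data known. Of 219 listed names, 208 matched by name, 2 by a unique RefSeq synonym, 5 were second names and 4 had no match. Besides the 10 purine genes, up to 2 called genes per direction and list with the smallest p and at least 1 CPM were to be named, and the 5 genes most like the purine mean. Further genes were named after their values were seen: adss, elavl3, fn1b, glulb, hprt1, impdh1a, mki67, mxd1, mych, prps1b, prpsap1, rrm1 and rrm2. The ratios of gene pairs were also added after seeing the data. Ratios of summed lists were not planned beforehand either. Deviations from group means used log2 of CPM plus 0.5.

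Whether replicate numbers pair the pools was checked on deviations from the group means across genes. Same-numbered pools correlated at 0.122 to 0.413 and others at −0.239 to 0.089, so the replicate number was used as a block in an alternative fit. The main test and the permutation tests of ratios treated the pools as unpaired. A paired test of the ratios was not run. That the numbers may pair the pools rests on the data alone, as no label explains them.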

Additional observations from a re-analysis of the deposited data

Results flagged for a closer look

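In 3 of 20 sets of 4 pools, 1 pool lay far from the other 3, where about 1 in 20 would by chance if the sets were independent. The sets share the same libraries, and those of paics and ppat were both flagged through DMSO replicate 2. DMSO replicate 2 was far above the other DMSO pools for paics (660 CPM, the next at 487 CPM) and for ppat (69.0 CPM, the next at 59.8 CPM). E64d replicate 1 was above the other E64d pools for gart (266 CPM, the next at 253 CPM), in a group whose pools were otherwise nearly equal. paics and ppat still fell without DMSO replicate 2 (log2 fold change −1.23 for paics and −0.39 for ppat, adjusted p = 1.98e-07 and 0.0206 by edgeR).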

How the results depend on the processing

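All 10 purine genes had a log2 fold change below 0 in the 16 alternatives, and of 160 single values 154 kept their side of the threshold and 6, all of adsl, no longer passed. Leaving out single pools gave 7 to 8 falls among the 10 genes, and their median log2 fold change was −0.58 to −0.52; it was −0.46 with library totals alone, under which the median of all genes was 0.10. With the replicate block 2580 genes were called in place of 1359, and 2209 with DESeq2; the block changed no call of the 10 purine genes. Without single pools 655 to 1396 genes were called, with the lowest count without E64d replicate 4. Library totals alone also moved the share of higher genes among those called to 61.7%, against 37.2% with TMM scaling. Of 480 values of the other genes named by rule, 430 kept their side and 50 no longer passed. The lowest count behind a purine gene was 1311, for ppat in E64d replicate 1. RNA counts say nothing of enzyme levels or of purine pools.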
